A study of Drosophila melanogaster
Mus musculus with 4 samples.

Results

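The Pax5 gene and its surroundings on mouse chromosome 4 were examined in ATAC-seq data, in which a transposase inserts sequencing adapters into open chromatin. The members are the accessible sites of the deposited table that start between 44450000 and 44950000 on chromosome 4 of the mm10 genome, a window of 500 kb. They number 34 of 69709 sites. The gene itself lies at about 44.53 to 44.71 Mb on the minus strand, so its 5′ end is at the higher coordinate and larger coordinates are upstream. These bounds are rounded to 0.01 Mb, and no mouse annotation was used, so distances from the 5′ end serve here as names for sites, and a site within 5 kb of a bound could lie on either side of it. Exons, introns and promoters were not assigned.

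The samples were B220+CD43+ cells, early B cell precursors, sorted from the bone marrow of C57BL/6 mice at 8 weeks of age. They comprised 2 libraries from mice with Hdac3 deleted and 2 from Hdac3+/+ wild-type controls, each made from 50000 sorted cells with 5% Drosophila S2 cells added. Hdac3 encodes a histone deacetylase that acts in nuclear corepressor complexes. The labels do not say how Hdac3 was deleted; from knowledge of the published study, Cre was expressed from the mb-1 (Cd79a) gene, which is active from the earliest B lineage cells. The deletion at Hdac3 and the sorted population were not checked against their genes, since that needs a mouse annotation.

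Pax5 encodes a paired-domain transcription factor that commits lymphoid progenitors to the B lineage. It activates B cell genes such as Cd79a and Blnk and represses genes of other lineages such as Csf1r, Flt3 and Notch1. The gene is transcribed from alternative first exons, and its expression in B cells depends on Ebf1 and on an enhancer within one of its introns. In the mouse, Zcchc7, which encodes a zinc-finger protein, is the next gene upstream of Pax5 and is read in the opposite direction. Sites upstream of Pax5 can therefore belong to either gene.

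The reads in the 34 sites came to 6204 and 4920 in Hdac3-deleted replicates 1 and 2, and to 11363 and 6122 in wild-type replicates 1 and 2. Single sites held from 15 to 1235 reads in the Hdac3-deleted libraries and from 39 to 1845 in the wild-type libraries. Values below are the authors' normalized reads per site unless called reads before scaling; in them 1 read counts as 0.999 and 1.33 in Hdac3-deleted replicates 1 and 2 and as 0.664 and 1.13 in wild-type replicates 1 and 2. The share of the filtered tags that fell in sites of the table was 36.6% and 44.0% in Hdac3-deleted replicates 1 and 2 and 46.8% and 36.4% in wild-type replicates 1 and 2. The 2 libraries of a genotype differed at the median site of the window by 1.22-fold in Hdac3-deleted cells and by 1.13-fold in wild type, against 1.19-fold and 1.16-fold over all sites. Wild-type replicate 2 stood apart in having 10 peaks on chromosome Y below 50 Mb, where each of the other libraries had 0. The 2 wild-type libraries thus differed in this, and it was not balanced between the genotypes. Where leaving out 1 library ended a call, its value is given beside the result. Separate mice are not stated for the replicates in the labels; the p-values thus reflect only how far these samples differ from each other, which may be technical.

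The window held more sites than most stretches of the same length. Its 34 sites compare with a median of 14 in the 4170 windows of 500 kb that held any site, and 487 windows held more. The sites were unevenly placed: 16 lay inside the gene, 18 upstream of it and 0 in the 80 kb between the window's lower edge and the 3′ end of the gene. The longest stretches without a site were the 107 kb at the lower edge of the window, 56.5 kb above the site at chr4:44755915-44757265 and 40.7 kb in the middle of the gene. Of the 34 sites, 20 had a peak in all 4 libraries (65.4% of all sites did).

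The highest level in the window was at chr4:44755915-44757265, 46.6 kb upstream of Pax5, which was also its widest site (1351 bp). It held 1234 and 1144 normalized reads in Hdac3-deleted cells, against 1225 and 1147 in wild-type cells. The genotypes overlapped there, with a log2 fold change of 0.00 (SE 0.10; adjusted p = 0.988, limma after adding 1 to each value and taking log2, p-values adjusted over all sites by Benjamini-Hochberg as throughout). It was the only site of the window above the 90th percentile of level in the whole table. The second highest, chr4:44671034-44671825, lay 38.6 kb inside the gene and held 598 and 627 normalized reads in Hdac3-deleted cells, against 614 and 508 in wild-type cells. Per length, however, the highest level of the window was at chr4:44704389-44704808 near the 5′ end of Pax5, with a mean of 1357 normalized reads per kb over the 4 libraries, against 879 per kb at the widest site and a median of 355 per kb over all sites.

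**Figure D1:**
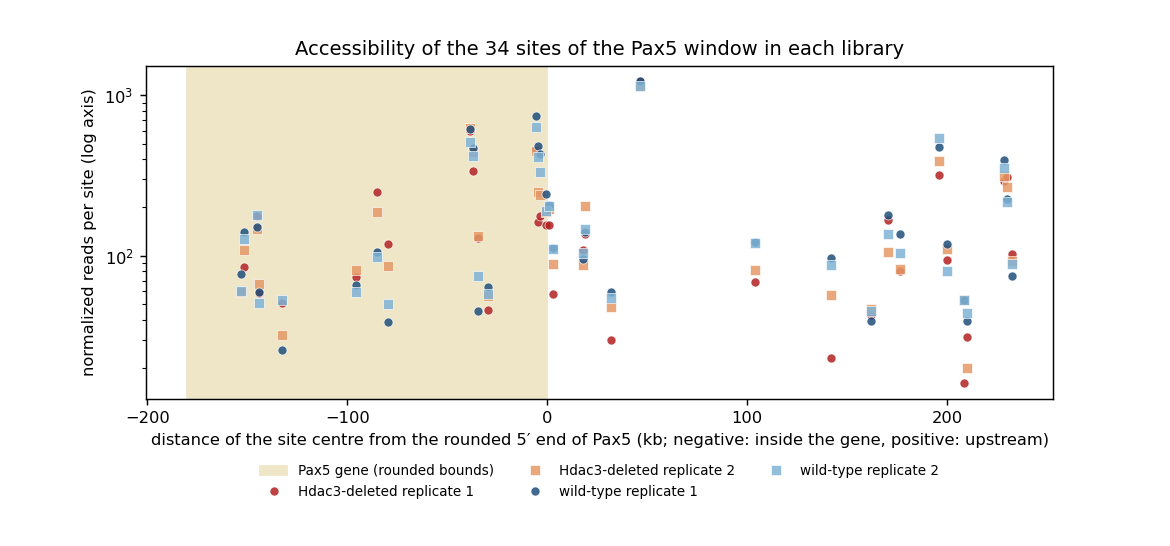
Normalized reads (log axis) of each of the 34 sites in each library, against the distance of the site centre from the rounded 5′ end of Pax5 in kb. The shaded part is the gene; the highest site, 46.6 kb upstream, lies between 1144 and 1234 in all 4 libraries, whereas just inside the 5′ end the wild-type points lie above the Hdac3-deleted ones.

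Accessibility was compared between genotypes with limma over all 69709 sites. In Hdac3-deleted cells 3 sites of the window rose and 5 fell, and 26 did not pass the test at an adjusted p of 0.05. The share of all sites called was 20.6% in both directions together, with 11.7% higher and 8.90% lower, so 8 of 34 is near what the table gives elsewhere. The 3 sites that rose all lay inside the gene, 34.8 to 85.3 kb from its 5′ end. Of the 5 that fell, 3 lay inside the gene within 5.4 kb of the 5′ end and 2 lay more than 100 kb upstream. The median log2 fold change was -0.21 in the window and -0.01 over all sites; it was -0.11 for the 16 sites inside the gene and -0.27 for the 18 upstream. Without Hdac3-deleted replicate 1, or without wild-type replicate 1, fewer sites were called both in the window and over all sites. The median log2 fold change of the window was then -0.17 and -0.15. When the scaling used the filtered tags of each library, 3 sites of the window were higher and 2 lower. Calls over all sites fell with that scaling too, from 14335 to 8742.

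The genotypes did not overlap at 22 of the 34 sites: both Hdac3-deleted libraries lay below both wild-type libraries at 16 sites (30.5% of all sites did) and above them at 6 (30.1% of all sites). The summed level of the window was 6198 and 6536 normalized reads in Hdac3-deleted replicates 1 and 2, against 7546 and 6945 in wild-type replicates 1 and 2. As a share of the reads in all sites this was 0.0293% and 0.0305% in Hdac3-deleted cells (95% Wilson intervals 0.0286 to 0.0300% and 0.0297 to 0.0314%), and 0.0344% and 0.0322% in wild type (0.0338 to 0.0351% and 0.0314 to 0.0330%). Both Hdac3-deleted libraries were below both wild-type libraries. The intervals cover counting error only, and 2 libraries against 2 cannot give a p below 0.333 in a two-sided exact permutation test. In sorted populations, fewer cells of one stage and less open chromatin per cell cannot be told apart. The difference of the means, -879 normalized reads, was made up of -656 at the 3 sites that fell inside the gene, -207 at the 2 that fell upstream, 246 at the 3 that rose and -261 at the other 26.

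**Figure D2:**
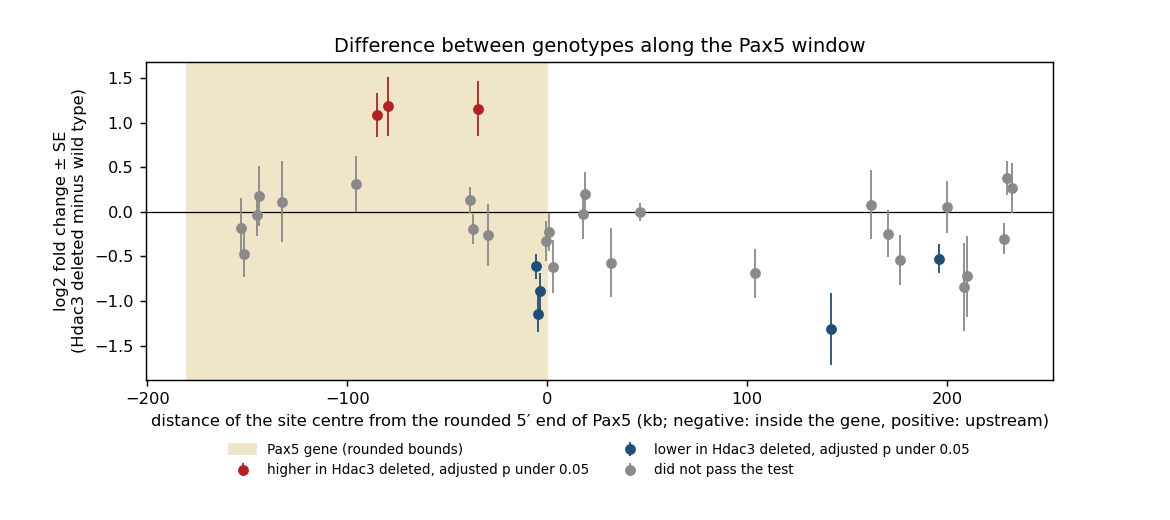
Log2 fold change (Hdac3 deleted minus wild type, limma, bars ± SE) of the 34 sites against the distance from the rounded 5′ end of Pax5 in kb. The 3 sites that rose lie in the body of the gene, and the 3 that fell just inside its 5′ end stand together.

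The sites that fell inside the gene lay side by side near its 5′ end, the end at which transcription of Pax5 starts. The largest change of the 3 was at chr4:44705247-44705563, 4.6 kb inside the 5′ end. It held 162 and 251 normalized reads in Hdac3-deleted replicates 1 and 2, against 482 and 413 in wild-type replicates 1 and 2. Both Hdac3-deleted libraries were below both wild-type libraries, and the ratio of a single Hdac3-deleted to a single wild-type library ran from 0.336 to 0.608. On the log2 scale the difference was -1.14 (SE 0.21; adjusted p = 0.00161, limma). This was the only one of the 8 called sites of the window that passed under each of the 15 alternatives run for it, with log2 fold changes from -1.46 to -0.83.

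Next to it towards the gene body, chr4:44704389-44704808 held 454 and 448 normalized reads in Hdac3-deleted cells, against 740.5 and 639 in wild-type cells. The Hdac3-deleted libraries were close to each other and both were lower (451 ± 4.16 against 690 ± 72.0, SD, n = 2 each). Its log2 fold change was -0.61 (SE 0.14; adjusted p = 0.00668, limma). It missed the threshold without wild-type replicate 1 (adjusted p = 0.0898, limma) and with scaling to filtered tags (adjusted p = 0.236, limma).

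On the other side, chr4:44706015-44706302 held 176 and 238 normalized reads in Hdac3-deleted cells and 432 and 334 in wild-type cells, again without overlap. Its log2 fold change was -0.89 (SE 0.21; adjusted p = 0.00667, limma). Without Hdac3-deleted replicate 1 the adjusted p was 0.0505, without wild-type replicate 1 it was 0.0738, and with scaling to filtered tags it was 0.0530 (limma).

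At the 3 sites closest to the rounded 5′ end no difference passed the test. The nearest of them, chr4:44709159-44709399, held 156 and 187 normalized reads in Hdac3-deleted cells against 241 and 191 in wild-type cells (log2 fold change -0.33, limma, adjusted p = 0.335). Just upstream, chr4:44710661-44711041 held 156 and 197 in Hdac3-deleted cells and 207 and 203 in wild type (log2 fold change -0.23, limma, adjusted p = 0.517). At chr4:44712961-44713275, 3.1 kb upstream, the values were 57.9 and 89.0 in Hdac3-deleted cells and 111 and 110.0 in wild type (log2 fold change -0.61, limma, adjusted p = 0.166). At these 3 sites too both Hdac3-deleted libraries were the lowest, as they were at 30.5% of all sites. At the nearest site the genotypes were barely apart, at 187 against 191. The 6 sites within 10 kb of the 5′ end together held 1161 and 1410 normalized reads in Hdac3-deleted cells, against 2213 and 1889 in wild-type cells. They made up 18.7% and 21.6% of the summed level of the window in Hdac3-deleted cells, and 29.3% and 27.2% in wild type. The 10 kb limit was not planned and takes in the 3 sites called lower, so these sums and shares are a description.

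Inside the body of the gene, 3 sites rose. The one with the most reads, chr4:44624331-44625140, was the longest of them and per length the lowest (a mean of 197 normalized reads per kb over the 4 libraries, against 339 and 612 at the other two). It lay 85.3 kb from the 5′ end and held 251 and 186 normalized reads in Hdac3-deleted cells, against 105 and 97.6 in wild-type cells. The wild-type libraries were close to each other, and each Hdac3-deleted library was at least 1.77 times each wild-type one. Its log2 fold change was 1.09 (SE 0.24; adjusted p = 0.00544, limma); without Hdac3-deleted replicate 1 it was 0.87 (adjusted p = 0.0560, limma).

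The position of the summit within that site also lay apart between genotypes in the peak lists. The peak summit lay 695 and 690 bp from the start of the site in Hdac3-deleted replicates 1 and 2, against 479 and 427 bp in wild-type replicates 1 and 2. The peak called there was 809 and 410 bp long in Hdac3-deleted cells and 393 and 160 bp long in wild-type cells. Over the 16 sites of the window with exactly 1 peak in each library, the distance between the outermost summits had a median of 45.5 bp. The site at 85.3 kb had the largest value, 268 bp, but at 810 bp it was also the widest of the 16. The next largest, 135 bp, was at chr4:44886140-44886476, a site of 337 bp. Distances relative to width were not compared. The summit pileups at the site at 85.3 kb were 48 and 31 fragments in Hdac3-deleted cells and 29 and 20 in wild-type cells, not scaled between libraries. The difference in summit position between genotypes was not tested.

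At 4.95 kb from it, on the side of the 5′ end, chr4:44630087-44630302 held 118 and 86.4 normalized reads in Hdac3-deleted cells, against 38.5 and 49.9 in wild-type cells. The groups did not overlap, and the mean was 2.31 times that of wild type. A log2 fold change of 1.18 (SE 0.33; adjusted p = 0.0188, limma) resulted, which missed the threshold without Hdac3-deleted replicate 1 (adjusted p = 0.127, limma) or without wild-type replicate 1 (adjusted p = 0.118, limma). A peak was called there in both Hdac3-deleted libraries and in wild-type replicate 2.

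The third, chr4:44675089-44675244, lay 34.8 kb inside the 5′ end and was the narrowest site of the window (156 bp). It held 129 and 133 normalized reads in Hdac3-deleted cells, against 45.2 and 74.9 in wild-type cells. It was also the only site of the window whose peaks were called in both Hdac3-deleted libraries but not in wild type (4.35% of all sites have this pattern). The log2 fold change was 1.16 (SE 0.31; adjusted p = 0.0147, limma), and without wild-type replicate 1, the lowest library, it was 0.80 (adjusted p = 0.166, limma).

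**Figure D3:**
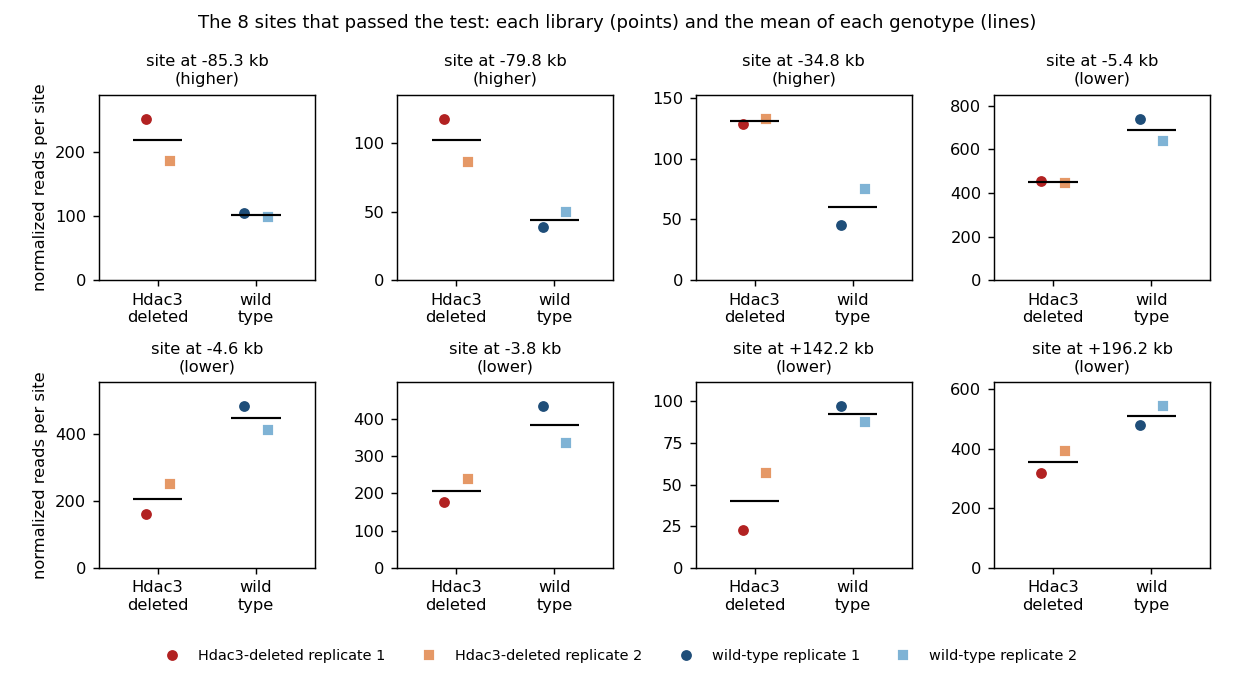
Normalized reads per site in each library (points) and genotype means (lines) at the 8 sites that passed the test, each named by its distance in kb from the rounded 5′ end of Pax5 (minus: inside the gene, plus: upstream); each axis starts at 0. At each of the 8 sites the Hdac3-deleted points do not overlap the wild-type points, which the choice of sites by these same values favours. Over the whole table the genotypes do not overlap at 42268 of 69709 sites.

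Strong sites next to one that rose did not pass the test. The narrow site at 34.8 kb has 2 strong neighbours within 5 kb: the second highest site of the window, described above (log2 fold change 0.13, limma, adjusted p = 0.564), and chr4:44672633-44673199. That neighbour held 337 and 441 normalized reads in Hdac3-deleted cells, against 468 and 416 in wild-type cells (log2 fold change -0.19, limma, adjusted p = 0.469). In both of them the genotypes overlapped. The difference between neighbouring sites was not itself tested.

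Ratios of sites within 1 library do not depend on how libraries are scaled. The site that rose at 85.3 kb held 1.55 and 0.741 times the reads of the site that fell at 4.6 kb in Hdac3-deleted replicates 1 and 2, against 0.218 and 0.236 times in wild-type replicates 1 and 2. Against the highest site of the window, the site at 4.6 kb held 0.131 and 0.220 times its reads in Hdac3-deleted cells and 0.393 and 0.360 times in wild-type cells. The site at 85.3 kb held 0.203 and 0.163 times its reads in Hdac3-deleted cells and 0.0856 and 0.0851 times in wild-type cells. In each of these ratios the genotypes were apart; the sites were picked for their change, so this is a description.

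Towards the 3′ end of the gene no site passed the test. The 5 sites between 132.5 and 153.3 kb from the 5′ end held between 31.9 and 178 normalized reads in Hdac3-deleted cells and between 25.9 and 179 in wild-type cells. Their log2 fold changes ran from -0.47 to 0.18. One of them, chr4:44577429-44577609, carried peaks in wild type only, in both libraries, but its levels were 51.0 and 31.9 normalized reads in Hdac3-deleted cells and 25.9 and 53.3 in wild type, so the levels of the genotypes overlapped.

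Upstream of the gene 2 sites fell and 16 did not pass the test. At chr4:44852043-44852296, 142.2 kb upstream, Hdac3-deleted cells held 23.0 and 57.1 normalized reads, against 97.0 and 87.4 in wild-type cells. Hdac3-deleted replicate 1 was at 0.402 times replicate 2, and both were below wild type; no peak was called in Hdac3-deleted replicate 1. A log2 fold change of -1.32 (SE 0.40; adjusted p = 0.0290, limma) was the largest fall of the window. It missed the threshold without Hdac3-deleted replicate 1 (log2 fold change -0.68, adjusted p = 0.214, limma), without wild-type replicate 1 (adjusted p = 0.133, limma) and in the DESeq2 Wald test (adjusted p = 0.0742).

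The other site that fell upstream, chr4:44905610-44906697, was wide (1088 bp) and held 319 and 392 normalized reads in Hdac3-deleted cells, against 479 and 541 in wild-type cells. This gave a log2 fold change of -0.53 (SE 0.16; adjusted p = 0.0317, limma). The adjusted p was 0.200 without Hdac3-deleted replicate 1, 0.168 without wild-type replicate 2 and 0.347 with scaling to filtered tags (limma). It covered several peaks, 2 and 3 in Hdac3-deleted replicates 1 and 2 and 2 in each wild-type library.

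The remaining sites upstream had log2 fold changes between -0.84 and 0.38. At the far end, chr4:44938363-44938980 held 291 and 314 normalized reads in Hdac3-deleted cells and 392 and 353 in wild type (log2 fold change -0.30, limma, adjusted p = 0.238). In the peak lists that site was 1 peak of 617 and 537 bp in wild-type replicates 1 and 2, and 2 separate peaks in each Hdac3-deleted library. The site at 38.6 kb inside the gene showed the same pattern, with 1 peak of 771 and 756 bp in wild-type cells and 2 peaks in each Hdac3-deleted library. The site at the far end held 291 and 236 reads before scaling in Hdac3-deleted cells and 591 and 311 in wild-type cells; the site inside the gene held 599 and 472 in Hdac3-deleted cells and 925 and 448 in wild-type cells. The highest site of the window was split into 2 peaks in 1 library of each genotype, Hdac3-deleted replicate 2 and wild-type replicate 2. How many of all sites have such splits was not counted, and the part of depth in them was not tested.

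**Figure D4:**
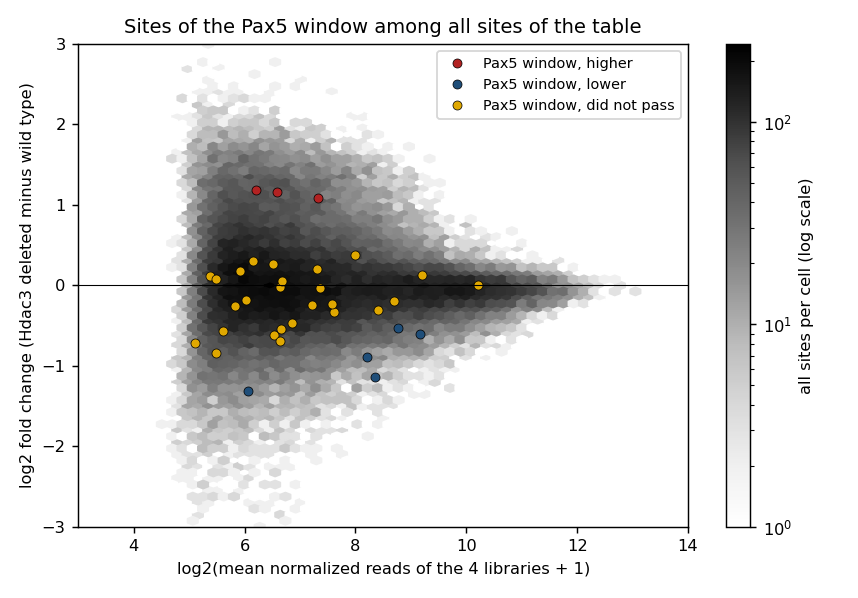
Log2 fold change (Hdac3 deleted minus wild type) against log2 mean level for all sites of the table (grey, darker where more sites fall; 103 sites beyond the axes are not drawn) with the 34 sites of the Pax5 window on top. The sites of the window lie within the spread of the table, with log2 fold changes from -1.32 to 1.18.

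Peaks called by the authors in each library numbered 28 and 34 in the window in Hdac3-deleted replicates 1 and 2, against 35 and 34 in wild-type replicates 1 and 2. They covered 8877 and 9634 bp in Hdac3-deleted cells and 12139 and 10398 bp in wild-type cells. The number of peaks over the whole genome was 62140 and 66507 in Hdac3-deleted cells and 77919 and 65823 in wild type. In each library 0 of these peaks lay between the window's lower edge and the 3′ end of Pax5. Peaks called in wild type only, in both of its libraries, were found at 4 sites (8.84% of all sites): the one near the 3′ end described above, chr4:44712961-44713275 next to the 5′ end, chr4:44742002-44742228 and chr4:44920097-44920304.

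These last 2 sites were among the lowest of the window. The site at chr4:44742002-44742228, 32.1 kb upstream, held 29.97 and 47.8 normalized reads in Hdac3-deleted cells and 59.1 and 54.5 in wild type (log2 fold change -0.57, limma, adjusted p = 0.336). The site at chr4:44920097-44920304, 210.2 kb upstream, held 31.0 and 19.9 in Hdac3-deleted cells and 39.2 and 44.2 in wild type (log2 fold change -0.72, limma, adjusted p = 0.291). In both the Hdac3-deleted libraries were lower, as at 30.5% of all sites, and neither difference passed the test. The reads before scaling at these 2 sites numbered 15 to 36 in the Hdac3-deleted libraries.

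The authors' own comparison gave nearly the same calls. At an FDR under 0.05 in the authors' deposited table, 3 sites of the window rose and 5 fell after Hdac3 deletion. Of all sites, 15.3% rose and 9.80% fell there. The authors' calls included 7 of the 8 calls made here in the window, and 12356 of the 14335 made over all sites. The site at chr4:44813804-44814158, 104.0 kb upstream, had an FDR of 0.0432 in the authors' deposited table and missed the threshold here (log2 fold change -0.69, limma, adjusted p = 0.0883), with 68.9 and 81.0 normalized reads in Hdac3-deleted cells against 122 and 120 in wild type. The wide site at 196.2 kb passed here and had an FDR of 0.0953 in the authors' deposited table.

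**Figure D5:**
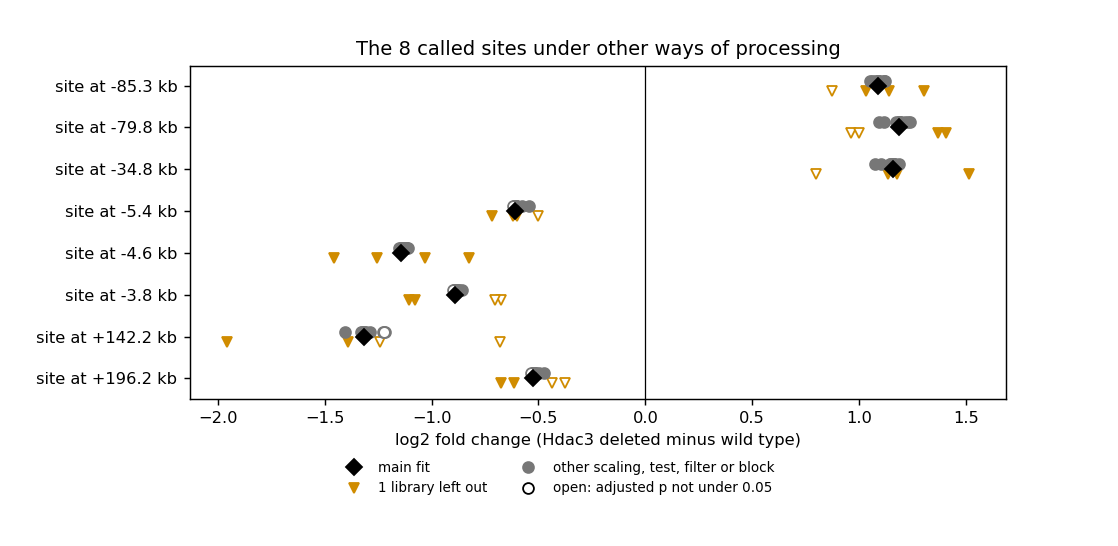
Log2 fold changes (Hdac3 deleted minus wild type) of the 8 called sites in the main fit (diamonds), with 1 library left out (triangles) and under other scalings, tests, filters and the replicate block (circles); open symbols mark an adjusted p of 0.05 or more. No symbol crosses 0, and the site at 4.6 kb inside the gene has filled symbols throughout.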

How the data were processed

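The submitters' processing notes name the genome builds mm10 and dm3, the aligner Bowtie2 2.2.4, the peak caller MACS2 2.0.10, and SAMtools, edgeR and DiffBind 1.10.2. The authors called peaks library by library with a q cutoff of 0.001 and no control, per the file headers, on reads filtered for quality and duplicates and shifted. In the authors' peak lists the pileup is an unscaled signal, the fold enrichment a ratio to local background, and the scores −log10 p-values or q-values. The authors' deposited site table holds a normalized signal (reads times 1 factor per library), log2 concentrations and folds, and p-values with FDR. The merging of peaks to sites is not given here; a start in the table lies 1 bp before that of a peak in the lists.

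Columns were matched to samples through the library names in the peak files. By those names the Hdac3-deleted column lettered B is replicate 1 and that lettered A replicate 2, whereas in wild type A is replicate 1 and B replicate 2; the crossed block of the closing section pairs equal letters. A mistake in the letters would exchange the 2 Hdac3-deleted libraries but move no sample between genotypes. Every value was a whole multiple of the value of 1 read (100% at a tolerance of 0.001 reads). limma 3.58.1 (R 4.3.3, trend in the prior variance) was fitted to log2(value + 1) of all 69709 sites, Hdac3 deleted minus wild type, without covariates, with Benjamini-Hochberg adjustment at 0.05 over all sites; such fold changes understate the change of low sites. No low-value filter was used. As alternatives edgeR 4.0.16 (14618 calls over all sites) and DESeq2 1.42.0 (11088 calls) were run on the recovered reads. Other scalings, pseudocounts, a filter, the replicate block and fits with each library left out were also run. In those last fits a genotype reduced to 1 sample is taken to vary like the other. The 34 members and all choices were made with earlier results of these data known.

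The sites named are those called, the 6 highest, the widest, the one nearest the 5′ end and those with peaks in both libraries of 1 genotype only; others named were chosen after their values were seen. A peak counted as present at 1 bp of overlap. No feature of the fly genome occurred (0), so the S2 cells gave no scaling, and an overall shift between genotypes cannot be seen. The planned lists of marker genes and Pax5 targets need a mouse annotation and were not analysed here.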

Additional observations from a re-analysis of the deposited data

Results flagged for a closer look

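A single peak of Hdac3-deleted replicate 1, at chr4:44898018-44898242 (225 bp), lay outside the site table and over no peak of a wild-type library, with a fold enrichment of 4.13 over local background in that list. It stands in 1 of the 2 Hdac3-deleted libraries. Each site of the window had a peak in at least 2 libraries, so the lack of a wild-type peak over it is not a separate result. The window held 1 and 0 peaks outside the table in Hdac3-deleted replicates 1 and 2, against 3 and 2 in wild-type replicates 1 and 2. The highest fold enrichment among them, 6.11, was at chr4:44893783-44893922 in wild-type replicate 2.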

How the results depend on the processing

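Under each of the scalings by size factors, TMM, library totals and loess, 3 sites were called higher and 5 lower. Both pseudocounts, the filter, edgeR and the replicate block gave these counts too. The DESeq2 Wald test gave 3 higher and 4 lower, with 11088 calls over all sites against 14335 in the main fit. The replicate number does not pair the samples by any label; the block changed no call and kept the counts at 3 and 5. The deviations of same-numbered libraries correlated at -0.10 over all sites. The crossed block, added after that was seen, gave 3 higher and 5 lower in the window too. Over all sites, however, it gave 19405 calls, against 14335 in the main fit and 14217 with the replicate block. The reason for this was not tested. With a library left out the number of calls changed, down or up, in the window and over all sites. The median log2 fold change of the window then ranged from -0.30 to -0.15. Without Hdac3-deleted replicate 2 a site not named above, chr4:44918424-44918624, was called lower too. Its log2 fold change was -1.675 there and -0.84 in the main fit. Scaling to filtered tags gave 2 lower in the window, with 8742 calls over all sites against 14335 in the main fit. An adjusted p under 0.01 left 1 higher and 3 lower, and a limit of 0.10 gave 3 higher and 6 lower. The sites inside the gene held 3 of the lower calls of the main fit. A −log10 q of at least 10 left 23 and 29 peaks in Hdac3-deleted replicates 1 and 2, against 29 and 25 in wild-type replicates 1 and 2. At 30 or more it left 3 and 6 in Hdac3-deleted replicates 1 and 2, against 16 and 8 in wild-type replicates 1 and 2. Wild-type replicate 1 had the most filtered tags, 70540115, and the most peaks over the whole genome. Peaks of the whole genome were not counted at these cuts, so these numbers are not a result about the window. Over 253 combinations of a named site and an alternative, 15 lost a call, 0 gained one and 6 changed sign; the cause was not tested. The changes of sign were at sites that never passed: with a library left out, log2 fold changes ran from -0.39 to 0.62 at chr4:44577429-44577609, from -0.0041 to 0.27 at chr4:44671034-44671825 and from -0.052 to 0.058 at chr4:44755915-44757265, which had -0.0079 with filtered tags. The summed level in Hdac3-deleted cells was 0.844 to 0.917 of wild type under all 8 alternatives run for it. The lowest count of a site in a library was 15 reads; the part of depth in missed calls was not tested.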
